A study of Bos taurus with 12 samples.

Results

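The genes described here mark Kupffer cells, the resident macrophages of the liver, and macrophages in general. The members are CD163, MARCO, VSIG4, CD5L, TIMD4, CD68, LYZ, MSR1, MRC1 and CSF1R, which makes 10 genes of the 18010 genes with a transcript of their own in the annotation used here. A gene was measured where a transcript of the array carried its symbol and no other, which held for 9 of the 10 members. MRC1, the mannose receptor, was matched to no such transcript and was not analysed here. Each of the 9 had a single transcript, so no choice among transcripts was needed.

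The livers came from Holstein cows biopsied 1 week after calving, at about day 7. The 6 cows of the control group received a mixed ration with 1% wheat bran, and the 6 cows of the GSGME group received 1% GSGME in its place, an extract of grape seeds and grape marc rich in flavonoids, both on a dry matter basis and from before calving onward. Every animal was female. Per the methods each group held 1 primiparous and 5 multiparous cows, although the labels do not tell which cow was which. Each biopsy was hybridised to an Affymetrix Bovine Gene 1.0 ST array of its own, with no pooling of animals, and cows are named by their group and animal number.

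Kupffer cells sit in the liver sinusoids, where they take up bacteria, dying cells, haemoglobin released from red cells and modified lipoproteins from portal blood. They depend on the receptor CSF1R for survival. Their surface carries scavenger receptors and a complement receptor, and the material they engulf is broken down in lysosomes. A needle biopsy holds mostly hepatocytes with a minority of these cells, so that more macrophages and more RNA per macrophage cannot be told apart in the signals below.

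Values are log2 signals as deposited, in which 1 unit is a doubling of the signal. Array medians lay between 6.02 and 6.17 and correlations between arrays between 0.968 and 0.99. Genes of olfactory receptors, taken as a guide to signal without expression, had a median of 3.66 over 710 genes and a 95th percentile of 5.62. The lowest signal of any member in any cow was 5.99, so all 9 members lay above that percentile in all 12 livers. The 10 hepatocyte markers had means between 8.89 and 13.77, and the 7 markers of all leukocytes between 6.56 and 9.72. Signals of different genes come from different probes and are not set against each other as levels. The number of arrays limits the precision.

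In the comparison of the groups, which asks whether feeding GSGME changed the liver transcripts, LYZ was the only member with a fold beyond 1.3 and an unadjusted limma p under 0.05. The study set the same limits on the p of another test, the methods' t-test, and by that test none of the 9 members passed. In limma LYZ was higher in cows fed GSGME, none of the members was lower, and 8 did not pass. These limits, called the criterion from here on and applied to limma unless said otherwise, were passed upward by 1.2% and downward by 0.624% of all 26773 transcripts, and in the methods' t-test by 0.844% and 0.407%. After Benjamini-Hochberg adjustment over all transcripts 0 of the 9 members passed 0.05 in limma, whereas 2 of them, LYZ and CD5L, had an unadjusted p under 0.05, and no transcript of the array passed after adjustment by limma or by the methods' t-test, although 5.85% and 5.71% of transcripts had an unadjusted p under 0.05. Of the 9 members, 6 had the higher mean in the GSGME group and 3 in the control group. Over all 26773 transcripts, 12112 had the higher mean in the GSGME group. The members' median log2 difference was 0.03, against -0.01 over all transcripts. The 2 groups overlapped for all 9 members, and 0.217% of all transcripts had groups without overlap.

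**Figure D1:**
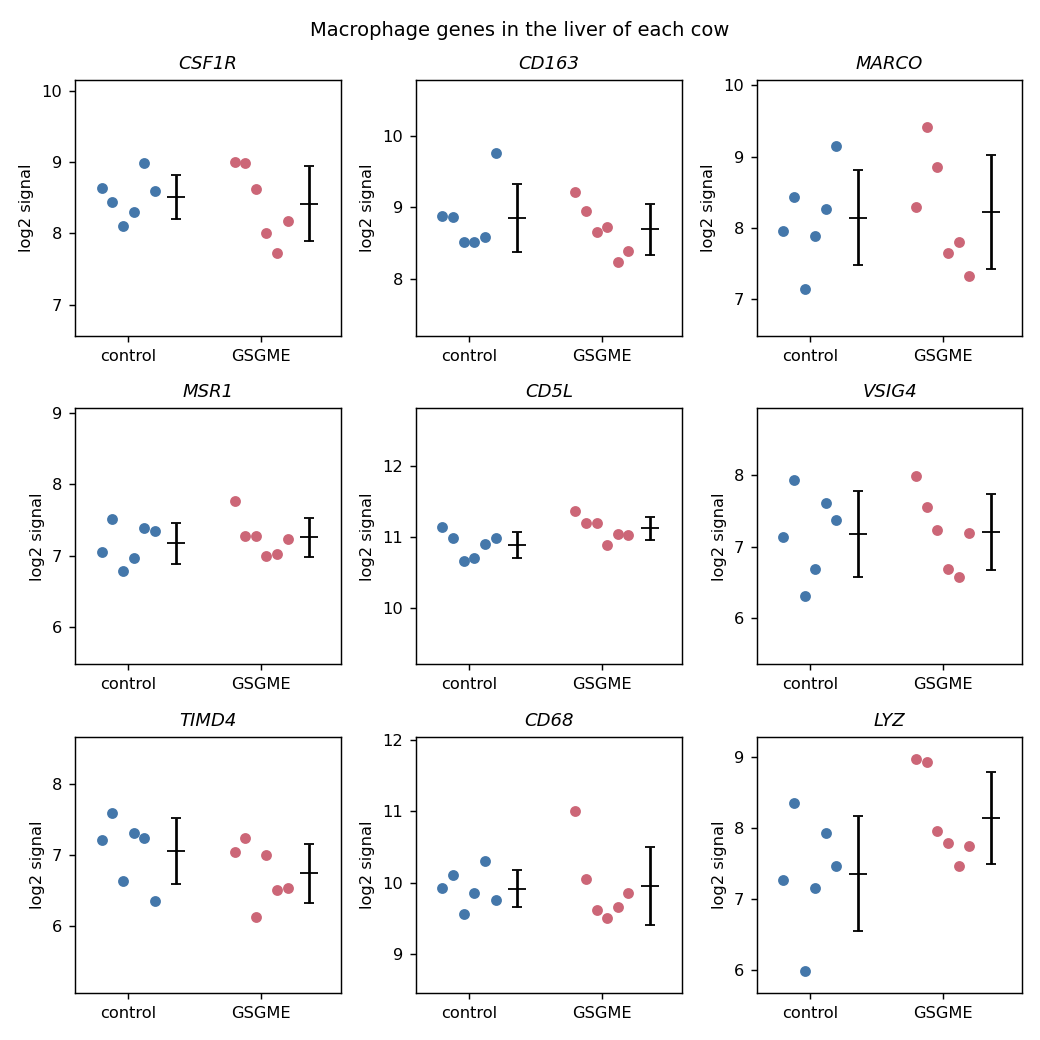
Log2 signal of the 9 measured macrophage genes (vertical axis, 1 panel per gene, all panels spanning the same number of log2 units) in 6 control cows (blue) and 6 cows fed GSGME (red); each point is a cow and the bars are the mean ± SD. All groups overlap, and LYZ, with means of 7.36 and 8.14, shows the largest distance between the groups.

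CSF1R is the receptor for the growth factors CSF1 and IL34 and keeps macrophages alive. Its log2 signal had a low of 8.10, a median of 8.52 and a high of 8.99 in control cows, and a low of 7.72, a median of 8.40 and a high of 9.00 in cows fed GSGME. The GSGME cows thus reached both the lowest and the highest values of this gene. The difference of -0.09 (95% interval -0.56 to 0.38, limma adjusted p = 0.947) was smaller than the SD of either group, 0.31 and 0.53.

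Among the scavenger receptors, CD163 takes up haemoglobin bound to haptoglobin. Its log2 signal ran from 8.51 over a median of 8.72 to 9.76 in control cows and from 8.23 over 8.69 to 9.22 in GSGME cows. The high end of the control group was a single animal, Liver_control_1150, and without it the difference of -0.15 turned to 0.03. MARCO, a scavenger receptor that binds bacteria, ran from 7.14 over 8.12 to 9.15 in control cows and from 7.32 over 8.05 to 9.42 in GSGME cows. These ranges nearly coincide, and the difference of 0.08 had a 95% interval from -0.69 to 0.86 (limma adjusted p = 0.975), the widest among the members and close to that of LYZ. The interval does not exclude a fold of -1.62 or of 1.82. MSR1, which takes up modified lipoproteins, had a mean of 7.17 ± 0.29 without GSGME and 7.26 ± 0.27 with it (SD, n = 6 each), a difference of 0.08 (95% interval -0.23 to 0.40). Without Liver_GSGME_821, the highest cow, it was -0.01.

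CD5L is a protein that macrophages secrete and that circulates in plasma bound to IgM. It ran from 10.66 over a median of 10.94 to 11.14 in control cows and from 10.89 over 11.12 to 11.36 in GSGME cows. Of the GSGME cows, 5 of 6 lay above the control mean, and 5 of 6 control cows lay below the GSGME mean. The difference of 0.23 (95% interval 0.00 to 0.45) had an unadjusted limma p of 0.0462, an adjusted p of 0.830 and an exact permutation p of 0.0519, two-sided. It did not pass the criterion because the fold was 1.17. With each cow left out in turn the difference stayed between 0.18 and 0.28, with unadjusted limma p-values between 0.0187 and 0.110. CD5L had the smallest spread between cows of the members, a within-group SD of 0.17. The other 8 ranged from 0.28 for MSR1 to 0.735 for MARCO, and the median over all transcripts above the median signal was 0.20.

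VSIG4 is a complement receptor of resident macrophages. In control cows its log2 signal ran from 6.30 over a median of 7.25 to 7.94, and in GSGME cows from 6.57 over 7.21 to 7.99. The medians and both ends of the groups nearly coincided, and the difference was 0.03 (95% interval -0.58 to 0.64, limma adjusted p = 0.990). TIMD4 binds phosphatidylserine on dying cells. It ran from 6.35 over 7.22 to 7.59 in control cows and from 6.13 over 6.76 to 7.23 in GSGME cows. TIMD4 had the most negative difference of the members, -0.31 (95% interval -0.79 to 0.17, limma adjusted p = 0.844), and 1 cow fed GSGME exceeded the control mean. It did not pass the criterion with all cows and passed it without Liver_control_1150, at a difference of -0.45 and an unadjusted limma p of 0.0463. That cow had the highest CD163 of all and the lowest TIMD4 of the control group.

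CD68 is a glycoprotein of the macrophage lysosome. It ran from 9.56 over 9.89 to 10.30 in control cows and from 9.50 over 9.76 to 11.00 in GSGME cows. The value of 11.00 belonged to Liver_GSGME_821, and the other 5 GSGME cows lay between 9.50 and 10.05. The difference of 0.03 (95% interval -0.44 to 0.50) turned to -0.18 without this cow.

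LYZ, the enzyme that cleaves bacterial cell walls, had a log2 signal of 5.99 at its lowest, 7.36 at the median and 8.35 at its highest in control cows. In cows fed GSGME these were 7.46, 7.87 and 8.97. All 6 GSGME cows lay above the control mean, while 1 of 6 control cows lay above the GSGME mean. The means were 7.36 ± 0.80 and 8.14 ± 0.65 (SD, n = 6 each), a 1.72-fold higher signal with GSGME (log2 difference 0.78, 95% interval 0.01 to 1.55, limma adjusted p = 0.830). The unadjusted limma p of 0.0479 lay just under the threshold, and an exact permutation test over the cows gave p = 0.0931, two-sided. The call was also lost in the methods' t-test. It was lost without any one of Liver_control_1017, Liver_control_825, Liver_control_1041, Liver_control_1150, Liver_GSGME_821, Liver_GSGME_741 and Liver_GSGME_1047, where unadjusted limma p-values reached 0.118. Without Liver_control_825, the lowest cow, the log2 difference was 0.51.

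**Figure D2:**
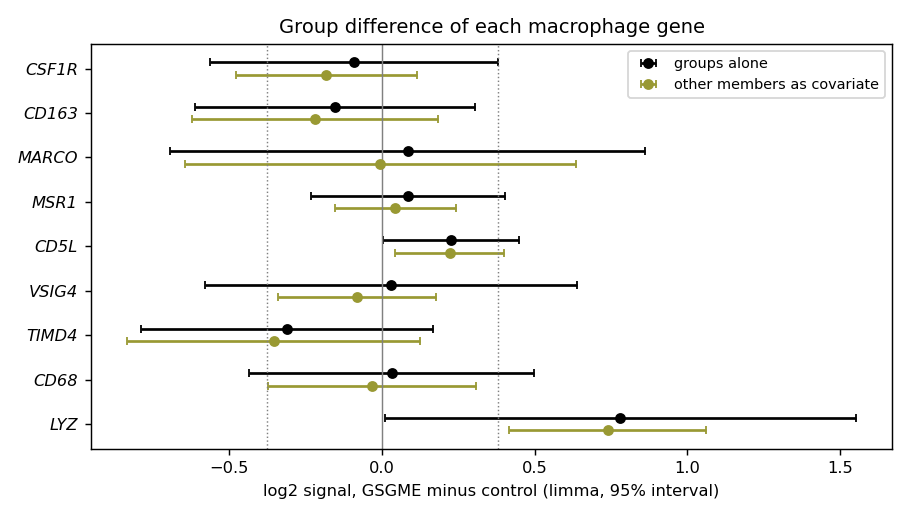
Difference between the groups for each macrophage gene (horizontal axis, log2 signal, GSGME minus control) with its 95% interval from limma; black points compare the groups alone, olive points add the mean of the other members as a covariate, and dotted lines mark a fold of 1.3. The intervals of LYZ and CD5L lie above 0 in both fits, and for LYZ the interval narrows from 0.01 to 1.55 to 0.42 to 1.06.

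Cattle carry several lysozyme genes that lie together on chromosome 5 of the ARS-UCD2.0 assembly, where LYSB, LYZ2 and LYZ3 neighbour LYZ. The array measured LYSB at a mean of 3.50, LYZ2 at 2.90 and LYZ3 at 3.29, all below the median of the olfactory receptors, 3.66. Their differences between the groups were 0.01, -0.15 and 0.05, with limma adjusted p-values of 0.996, 0.847 and 0.922. Whether the LYZ probes also bind RNA of its neighbours was not tested.

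The members differed far more from cow to cow than between the groups. The distance between the group means made up 33.5% of the variance of CD5L over the 12 cows, 25.6% of that of LYZ and 13.0% of that of TIMD4, and 3.88% or less of that of the other 6. With no difference between the groups, 9.09% would fall between them on average. The distance from the lowest to the highest cow was 7.89-fold for LYZ, 4.86-fold for MARCO and 3.23-fold for VSIG4, and it was smallest for CD5L, at 1.62-fold. Of all transcripts above the median signal, 99.2% had a smaller within-group SD than MARCO, 99.1% than LYZ and 98.0% than VSIG4, but 37.4% than CD5L.

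Single cows stood out across the members. Liver_GSGME_821 had the highest signal of all 12 cows for 6 of the 9 members (VSIG4, CD5L, CD68, LYZ, MSR1 and CSF1R). Liver_control_825 had the lowest for 5 (MARCO, VSIG4, CD5L, LYZ and MSR1). After each gene was standardized over the 12 cows, the mean over the members was 1.35 SDs in Liver_GSGME_821 and -1.29 in Liver_control_825, and the groups overlapped: the control cows lay between -1.29 and 0.62 and the GSGME cows between -0.80 and 1.35. Liver_GSGME_821 also had the highest mean of 13 of the 18 other gene lists described below, among them those of all leukocytes (2.43 SDs), stellate cells (2.28 SDs), T and NK cells (1.90 SDs) and endothelial cells (1.46 SDs). Liver_control_825 had the highest array median, 6.17, the narrowest interquartile range of its signals, 2.53, and the lowest array weight, 0.43. The part of these properties in the members' values was not tested.

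**Figure D3:**
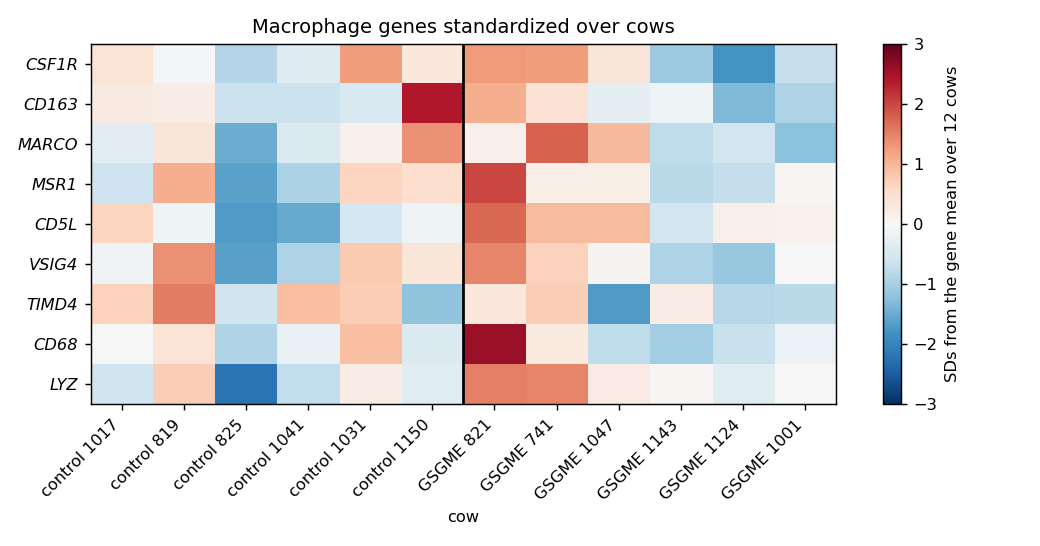
Signal of the 9 macrophage genes (rows) in each of the 12 cows (columns, control left of the line and GSGME right of it) in SDs from the gene's mean over all cows; red is above and blue below the mean. Liver_GSGME_821 is red in all rows and Liver_control_825 blue in all rows, while CD163 and TIMD4 part in Liver_control_1150.

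With the group means removed, the members moved together over the 12 cows. Of 36 pairs, 35 had a positive Pearson's r, with a median of 0.62, and 13 passed 0.05 after adjustment over the 36 pairs (permutation within the groups, 100000 resamples). The closest pair was VSIG4 and MSR1, with r = 0.958 (permutation p = 1e-05, the smallest that the resamples can give, adjusted p = 0.00036) and Spearman's rho = 0.981 (permutation p = 3e-05). Without the 2 cows farthest from the median of VSIG4, r was 0.945. It was 0.977 within the control group and 0.937 within the GSGME group. VSIG4 and LYZ followed with r = 0.932 (permutation p = 2e-05, adjusted p = 0.00036, rho = 0.930 with permutation p = 1e-05), which was 0.895 without the 2 cows, 0.956 within the control and 0.900 within the GSGME group. LYZ and MSR1 had r = 0.861 (permutation p = 6e-05, adjusted p = 0.00072, rho = 0.890 with permutation p = 0.0001), and 0.786 without the 2 cows farthest from the median of LYZ. CD68 and MSR1 had r = 0.815 (permutation p = 0.00249, adjusted p = 0.0128, rho = 0.785 with permutation p = 0.00366), and 0.649 without 2 cows.

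The r of TIMD4 with the other members lay between -0.07 with CD163 and 0.61 with LYZ. None of its 8 pairs passed the adjusted threshold for Pearson's r, and no pair of CD163 or of MARCO passed it either. For Spearman's rho again no pair of TIMD4 passed, but some pairs of CD163 and of MARCO did. Among those were MARCO and LYZ (rho = 0.783, adjusted permutation p = 0.0227) and CD163 and CD5L (rho = 0.699, adjusted permutation p = 0.0356). Others did not, such as CD163 and MARCO (rho = 0.630, adjusted permutation p = 0.0626). The 28 pairs without TIMD4 had r between 0.24, for MARCO and CD68, and 0.96. All 13 pairs that passed for Pearson's r lay among VSIG4, CD5L, CD68, LYZ, MSR1 and CSF1R. For CD163 and TIMD4 the sign differed between the groups, with r = -0.559 over the 6 control cows and 0.640 over the 6 GSGME cows. The control value includes Liver_control_1150, which had the highest CD163 (9.76) and the lowest TIMD4 (6.35) of its group. For this pair r was 0.503 over both groups without the 2 cows farthest from the median of CD163. A difference in sign between the groups was not tested. Without the 2 cows farthest from the median of one gene of the pair (CD163, MARCO, VSIG4 or CD5L in their pairs, TIMD4 in the other 4), r was higher in 5 of the 8 pairs and lower in 3, and it lay between 0.13 with CD5L and 0.88 with LYZ. Whether the correlations of TIMD4 differ from those of the other members was not tested.

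**Figure D4:**
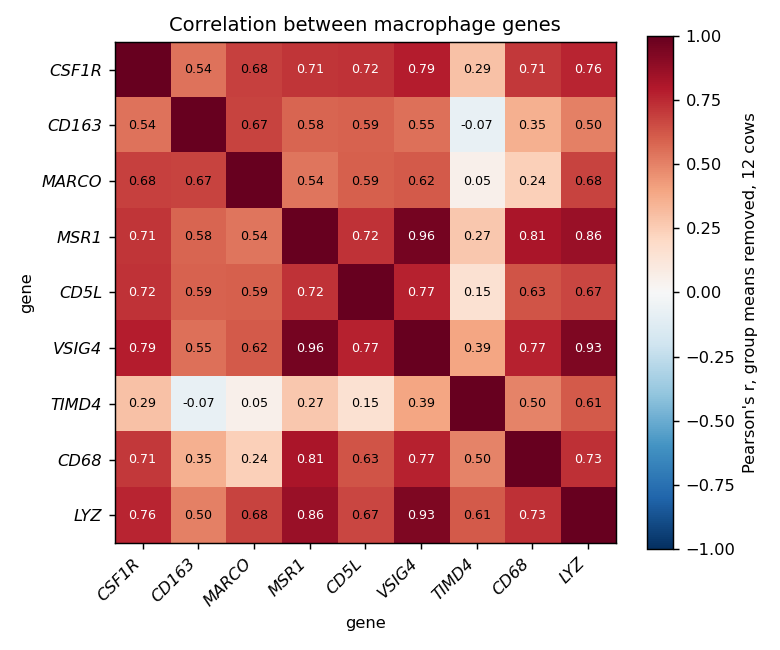
Pearson's r between each pair of macrophage genes over 12 cows after removal of the group means (colour and number in each cell, rows and columns in the same order). VSIG4, MSR1 and LYZ form the block of highest values, 0.86 to 0.96, and the row of TIMD4 is the palest, with values from -0.07 to 0.61.

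LYZ was also compared at a like level of the other members. When the mean of the other 8 standardized members was added as a covariate, a choice made after the values had been seen, LYZ was higher with GSGME by 0.74 (95% interval 0.42 to 1.06, limma adjusted p = 0.630 over all transcripts). At the criterion 1.27% of all transcripts were higher in this fit and 6.25% had an unadjusted p under 0.05. The unadjusted limma p of LYZ was 0.000257. Since the covariate was made of genes that follow LYZ over the cows, it takes away spread of LYZ by construction, and the narrower interval is no further support for the difference. With each cow left out in turn the difference lay between 0.64 and 0.84 and the unadjusted limma p between 4.61e-05 and 0.000912, while adjusted p-values lay between 0.332 and 0.966. Of the 9 members, LYZ was the 1 past the criterion in such fits. CD5L kept a difference of 0.22 (95% interval 0.04 to 0.40, limma adjusted p = 0.770). TIMD4, CD163 and CSF1R had differences of -0.35, -0.22 and -0.18 with intervals that include 0, in fits where 0.616%, 0.605% and 0.598% of all transcripts were lower at the criterion.

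Within single arrays, the LYZ signal minus the VSIG4 signal of the same liver had a low of -0.31, a median of 0.22 and a high of 0.48 in control cows. In cows fed GSGME the low was 0.55, the median 0.94 and the high 1.36. The groups did not overlap in this difference, with means of 0.18 ± 0.29 and 0.93 ± 0.29 (SD, n = 6 each). This was the 1 pair without overlap among the 36 pairs of members. It was found by looking through them, so it is given as a description with no test. The share of all transcripts that separate the groups in this way against VSIG4 is not given here. How unusual the separation is therefore cannot be judged. VSIG4 is part of the covariate above, so the covariate fit and this difference describe the same values. Such a difference does not by itself tell which gene changed. Between the group means LYZ differed by 0.78 (95% interval 0.01 to 1.55) and VSIG4 by 0.03 (-0.58 to 0.64).

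**Figure D5:**
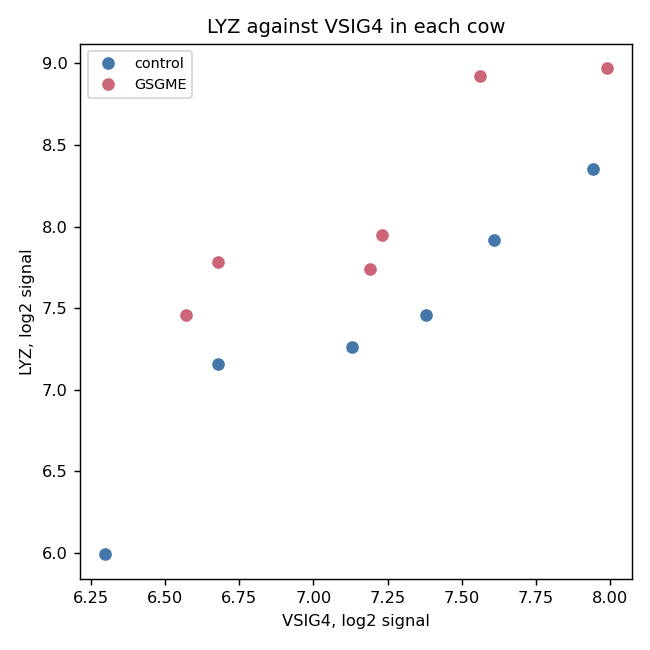
Log2 signal of LYZ (vertical axis) against that of VSIG4 (horizontal axis) in each liver, control cows in blue and cows fed GSGME in red. Both genes are high in the same cows within each group (r = 0.956 and 0.900), and at a like VSIG4 signal the GSGME cows have the higher LYZ signal.

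Other genes of macrophage biology were taken from lists of pathways and cell types. Of 13 measured genes of resident macrophages, none passed the criterion, and the median log2 difference was 0.09, or 0.02 without Liver_GSGME_821. The lowest p-values were those of CD209, a lectin receptor, with 7.08 ± 0.57 without and 6.62 ± 0.36 with GSGME (SD, n = 6 each, limma adjusted p = 0.830), and FOLR2, a folate receptor of resident macrophages, with 8.06 ± 0.10 and 8.29 ± 0.35 (limma adjusted p = 0.840). With each cow left out in turn the difference of CD209 lay between -0.61 and -0.32, and it passed the criterion without Liver_control_1041 or Liver_control_1150. Of 13 genes of monocytes and recruited macrophages, 1 was higher and none was lower, with 11 of 13 means higher in GSGME cows and a median difference of 0.23. Without Liver_GSGME_821 these were 7 of 13 and 0.08, and none passed. The 1 was GPNMB, a glycoprotein of lipid-laden macrophages, which ran from 5.94 over a median of 7.26 to 8.19 in control cows and from 6.73 over 8.36 to 8.89 in GSGME cows (1.83-fold, log2 difference 0.87, 95% interval 0.04 to 1.70, limma adjusted p = 0.830, exact permutation p = 0.0823). The groups overlapped widely. GPNMB was no longer called in the methods' t-test, nor with array weights, nor after leaving out any one of 8 cows, and its difference was 0.62 without Liver_control_1150.

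Of 15 genes of phosphatidylserine and opsonin uptake, 2 were higher and none was lower. ELMO1, an adapter that drives engulfment, ran from 7.64 over 8.29 to 8.63 in control cows and from 8.57 over 8.70 to 8.73 in GSGME cows (1.36-fold, limma adjusted p = 0.830, exact permutation p = 0.0065). All GSGME cows lay within a narrow band, with an SD of 0.08 against 0.35 in the control group, and the difference of 0.44 was 0.33 and below the fold threshold without Liver_control_825. ITGB3, an integrin subunit that takes part in uptake of dying cells, ran from 7.93 over 8.10 to 8.58 in control and from 8.35 over 8.62 to 8.97 in GSGME cows (1.33-fold, limma adjusted p = 0.830, exact permutation p = 0.0238). It was below the fold threshold without any one of Liver_control_1017, Liver_control_1031, Liver_control_1150, Liver_GSGME_1143 and Liver_GSGME_1124, with differences between 0.34 and 0.38.

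None of the measured genes passed in either direction in the 6 other pathway lists. These were 9 transcription factors of macrophages, 14 ligands and signal partners of CSF1R, 14 other scavenger receptors, 14 lysosomal genes, 10 genes of haptoglobin and heme handling and 14 cytokines and receptors that set macrophage state. Their median log2 differences lay between -0.05 and 0.07, and between -0.11 and 0.02 without Liver_GSGME_821. The lowest p-values were those of ID3 and TFEC among the factors (adjusted p of 0.847 and 0.866 in limma), TYROBP and LYN among the partners (0.830 and 0.836), CD36 and SSC5D among the scavenger receptors, LIPA and LGMN among the lysosomal genes, HPX and SLC48A1 in the heme list, and IL10 and IFNGR2 among the cytokines. The most negative difference of the heme list was that of HP, haptoglobin, at -0.615 (95% interval -1.67 to 0.44, limma adjusted p = 0.857). TYROBP, a signal adapter, had a difference of 0.32 (95% interval -0.07 to 0.71). CD36, a receptor for fatty acids and oxidised lipoproteins, had 0.45 (-0.05 to 0.95), and LIPA, the acid lipase of lysosomes, had 0.46 (-0.02 to 0.94). With each cow left out in turn, the difference lay between 0.18 and 0.42 for TYROBP, 0.29 and 0.57 for CD36 and 0.36 and 0.59 for LIPA. It was lowest for TYROBP and CD36 without Liver_GSGME_821 and for LIPA without Liver_control_1150. The criterion was passed by TYROBP without Liver_GSGME_1143, by CD36 and LIPA without any one of 4 cows each, and by LIPA with array weights. LGMN, a lysosomal protease, lay between 0.22 (without Liver_control_1150) and 0.46 (without Liver_control_1041), and IL10 between 0.18 (without Liver_GSGME_821) and 0.39 (without Liver_control_825), and both passed only at their highest value.

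The biopsies could also hold other cells. Of 7 markers of all leukocytes none passed the criterion, and all 7 had the higher mean in GSGME cows, with a median difference of 0.28. Liver_GSGME_821 was the highest cow for all 7, and without it 6 of 7 means were higher and the median difference was 0.10. PTPRC, a surface phosphatase of leukocytes, was at 8.24 ± 0.26 without and 8.40 ± 0.40 with GSGME (SD, n = 6 each, limma adjusted p = 0.886). Its difference of 0.16 was 0.02 without that cow. Of 9 T and NK cell markers 1 was higher, CD3D (log2 difference 0.43, limma adjusted p = 0.830, exact permutation p = 0.0779), and of 6 B and plasma cell markers 1, JCHAIN, the joining chain of secreted antibodies (0.66, limma adjusted p = 0.830, exact permutation p = 0.0519). CD3D did not pass without any one of 6 cows, among them Liver_GSGME_821 (0.30), and JCHAIN did not pass without Liver_GSGME_821 (0.51) or Liver_control_1150 (0.54). The mean of CD3D over the 12 cows, 5.61, lay just under the 95th percentile of the olfactory receptors, 5.62. None was higher or lower among 10 hepatocyte, 9 endothelial, 7 neutrophil, 5 red cell, 7 stellate cell and 5 bile duct markers, where median differences lay between -0.18 for neutrophils and 0.15 for stellate cells, the latter -0.11 without Liver_GSGME_821. The neutrophil markers had low signals, with means from 4.24 for S100A8 to 6.22 for MPO. The part of other cells in the difference of LYZ, which neutrophils and monocytes also make, was not tested.

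Over the cows, with group means removed, the mean of the members followed that of the other resident macrophage genes (r = 0.869, rho = 0.888), of the heme list (r = 0.861, rho = 0.797), of the endothelial markers (r = 0.847, rho = 0.825) and of the leukocyte markers (r = 0.844, rho = 0.930), and ran against that of the hepatocyte markers (r = -0.817, rho = -0.741). It was less close to monocyte genes (r = 0.572, rho = 0.497), T and NK cell markers (r = 0.417, rho = 0.273) and neutrophil markers (r = 0.278, rho = 0.210). These are descriptions over 12 livers that share each array's normalization, and the interquartile range of the array itself had r = 0.603 (rho = 0.620) with the members. The heme list and the list of resident macrophage genes both hold HMOX1 and SLC40A1, so their values are not independent. Without Liver_GSGME_821 and Liver_control_825, the 2 cows farthest from the median, r was 0.816 for the resident macrophage genes, 0.897 for the endothelial, 0.826 for the leukocyte and -0.734 for the hepatocyte markers. Of the 18001 other genes, the 5 whose signals followed the members most closely were ANXA11 (r = 0.970, rho = 0.977), PRKACB (r = 0.968, rho = 0.958), GYG1 (r = 0.956, rho = 0.972), PAK1 (r = 0.945, rho = 0.916) and GPR34 (r = 0.940, rho = 0.923). They were picked as the highest of all, so their values are no test, and without the same 2 cows they lay between 0.909 and 0.966.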

How the data were processed

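Probe intensities read from the array images were corrected for background, normalised together and summarised per transcript by the authors with RMA (Affymetrix Expression Console). The sources used here give no version of either. The deposited table holds the resulting log2 signal of 26773 transcripts on 12 arrays, 1 per cow, to 2 decimals. Per the platform annotation, 18457 transcripts carried 1 symbol, 688 several and 7628 none. For a gene on several transcripts the one with the highest mean was taken.

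Differences are GSGME minus control from limma 3.58.1 (lmFit and eBayes, R 4.3.3, two-sided), fitted on all transcripts with Benjamini-Hochberg adjustment. A fold below 1 is written as its negative inverse. The step was tested on simulated data with known changes, in which each transcript varied independently. Shifts shared by many genes of a cow were not simulated, so the test does not cover them. The exact permutation test ran over 924 assignments of cows. Outside the members its p is given only for list genes already past the criterion, unadjusted, so it is no further support for them. Python 3.11.15, numpy 2.4.6, scipy 1.17.1 and pandas 2.3.3 served for the rest.

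The members, the 18 other lists and the tests were chosen with earlier results of these data known. Named were the members, each list gene past the criterion, otherwise the 2 with the lowest p, PTPRC, and the 5 genes most like the members. HP was added because its difference was the largest of its list. Tried in place of these were the methods' t-test, a trended and robust eBayes, cyclic loess, array weights, transcripts above the median, fold thresholds of 1.2 and 1.5, the adjusted p and leaving out each cow; the covariate and the within-array differences were added after seeing the data. No sequences of the members were used here.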

Additional observations from a re-analysis of the deposited data

Results flagged for a closer look

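In groups of 6 cows, a cow was singled out where its gap to the nearest other cow, as a share of the range of its group, exceeded the critical value of Dixon's test at the 95% level. Chance singles out about 1 in 20 groups, and 11 of the 88 groups tested held such a cow. Among the members, Liver_control_1150 had a CD163 signal of 9.76, against 8.51 to 8.88 in the other control cows. Liver_GSGME_821 had a CD68 signal of 11.00, against 9.50 to 10.05 in the other GSGME cows, and an MSR1 signal of 7.76, against 7.00 to 7.27. The same cow had the highest LYN (8.41), TEK (8.25) and COL3A1 (9.01) of its group, the last against 6.54 to 7.38 in the other 5 cows. Liver_control_825 had the lowest TFEC of its group, 5.90 against 6.65 to 6.95. The other 4 such cases were ID3 in Liver_control_1017 (7.85), CXCR2 in Liver_control_1017 (4.13), SLC4A1 in Liver_GSGME_1047 (4.60) and CFTR in Liver_GSGME_1001 (6.72). The difference between the groups without each of these cows is part of the leave-one-out ranges.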

How the results depend on the processing

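LYZ, the 1 member past the criterion, kept its direction in every alternative run and lost the call in the methods' t-test (log2 difference 0.78), with eBayes with trend and robust (0.78) and with array weights (0.67). The count of higher members was then 0, as it was with the adjusted p under 0.05, and it stayed at 1 at folds of 1.2 and 1.5. CD68 turned to -0.002 with cyclic loess, -0.027 with array weights and -0.033 with the other members as covariate, an addition after seeing the data that also turned MARCO to -0.006 and VSIG4 to -0.083. The 2 higher genes of the cell type lists became 1 in the methods' t-test and 1 with transcripts above the median only, since CD3D lies below it. With each cow left out in turn, log2 differences lay between -0.26 and 0.027 for CD163, -0.16 and 0.29 for MARCO, -0.14 and 0.18 for VSIG4, -0.45 and -0.19 for TIMD4, -0.18 and 0.12 for CD68, 0.51 and 0.98 for LYZ, -0.015 and 0.15 for MSR1 and -0.21 and 0.048 for CSF1R. Counts of members lay between 0 and 1 in either direction (1 lower, TIMD4, without Liver_control_1150), those of the pathway lists between 1 and 6 higher (6 without Liver_control_819, 1 without Liver_control_1150) and 0 and 1 lower, and those of the cell type lists between 0 and 4 higher (4 without Liver_GSGME_1001, 0 without Liver_GSGME_821 or Liver_control_1150). Of the other named genes, ALAS2 lay between -0.016 and 0.158 and COL3A1 between -0.111 and 0.383. Apart from the shown constructions, the cause was not tested. No paired analysis was possible because the groups share no animal number.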
